A study of Mus musculus with 103 samples.

Results

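Krtcap2 and 6 genes near it on mouse chromosome 3 (Trim46, Muc1, Thbs3, Mtx1, Dpm3 and Efna1) were followed through every library and column of 4 deposited expression tables from quiescent mouse embryonic fibroblasts. They are 7 of the 23339 transcripts listed in the main RNA-seq table. They were chosen by a rule that used the response to Ctcf loss, in which Krtcap2 was lower, so the values after Ctcf deletion alone are given here as a description without a test. All 7 passed the minimum of 1 RPKM (reads per kilobase of transcript, scaled to the reads of the library) in at least 2 libraries and were among the 12604 genes tested.

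The study asked how CTCF, transcription and the cohesin release factor Wapl place cohesin on the genome. RNA-seq covered 27 libraries in the main table and 2 in a table normalized separately. Global run-on sequencing (GRO-seq) reads RNA made by engaged polymerase in isolated nuclei. Its samples were of the combined mutant, wild-type cells and Rosa26(CreER/+) cells, and its deposited columns are named for the combined mutant and for wild type. The fibroblasts came from C57BL/6 E13.5 embryos and did not divide. Each library is of 1 clone, as the labels call it, and treated and untreated libraries of a genotype mostly come from the same clone.

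The groups were as follows. Wild-type cells were untreated (clones 2 and 3) or given Cre recombinase from an adenovirus (Adeno-Cre) for 4 h, and Ctcf(fl/fl) cells (clones 1 and 2) were handled likewise. Ctcf(fl/fl) Wapl(fl/fl) cells were untreated (clones 3 and 4) or given Adeno-Cre (clone 4 only in the main table). Rosa26(CreER/+) cells (clones 2 and 3), Rosa26(CreER/+) Smc3 cells (clone 1 fl/fl and clones 2 to 4 fl/-) and Rosa26(CreER/+) Wapl(fl/-) cells (clones 1 and 2) were untreated or given hydroxytamoxifen for 2 to 3 days. All groups rested for 10 days. The untreated Smc3(fl/-) and Wapl(fl/-) cells already lacked 1 allele. Wild-type and Rosa26(CreER/+) cells given the same agents served as controls for the agents. The GRO-seq samples of wild-type cells were untreated or given Adeno-Cre, and those of Rosa26(CreER/+) cells untreated or given hydroxytamoxifen.

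CTCF is a zinc-finger protein that binds DNA at many sites, some of them near promoters, and stops cohesin there. Cohesin, of which Smc3 is a subunit, forms chromatin loops, and Wapl takes it off DNA. Krtcap2 (also called KCP2) is a subunit of the oligosaccharyltransferase that puts N-glycans on proteins in the endoplasmic reticulum, and Dpm3 is the small subunit that anchors dolichol-phosphate mannose synthase, which makes a sugar donor for the same glycans. Trim46 is a microtubule-binding protein of the axon initial segment, Muc1 a membrane mucin of epithelia, Thbs3 a thrombospondin of the extracellular matrix, Mtx1 (metaxin) part of a complex of the mitochondrial outer membrane, and Efna1 an ephrin ligand of EphA receptors.

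In gene order the members read Mtx1, Thbs3, Muc1, Trim46, Krtcap2, Dpm3 and Efna1, and Slc50a1 lies between Dpm3 and Efna1. Mtx1 and Thbs3 start back to back, and so do Trim46 and Krtcap2. In RefSeq on GRCm38.p6 (the expression tables were made on mm9, so these positions belong to another build) the annotated starts of Trim46 lie 541 to 1460 bases from those of Krtcap2, the starts of Mtx1 and Thbs3 lie 1273 bases apart, and those of Krtcap2 and Dpm3 lie 19988 to 20023 bases apart. Promoter windows of 300 bases (250 before the start and 50 after) were found for 7 of 7 members. Windows of 3 members are shown, from Krtcap2, its back-to-back neighbour Trim46 and the next gene Dpm3, at chr3:89246188-89246487 (plus strand), chr3:89245848-89246147 (minus strand) and chr3:89266211-89266510 (plus strand), each read 5′ to 3′ along its gene. Capitals mark a match to a short form of the CTCF core motif, CCA, any 2 bases, AG, any 2 bases and GGC.
Krtcap2: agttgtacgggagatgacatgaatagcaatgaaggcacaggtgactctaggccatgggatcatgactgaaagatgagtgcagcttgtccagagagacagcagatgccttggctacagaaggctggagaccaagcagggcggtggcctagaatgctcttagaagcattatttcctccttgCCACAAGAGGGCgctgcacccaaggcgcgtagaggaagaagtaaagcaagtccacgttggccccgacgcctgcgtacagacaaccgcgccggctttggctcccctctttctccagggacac
Trim46: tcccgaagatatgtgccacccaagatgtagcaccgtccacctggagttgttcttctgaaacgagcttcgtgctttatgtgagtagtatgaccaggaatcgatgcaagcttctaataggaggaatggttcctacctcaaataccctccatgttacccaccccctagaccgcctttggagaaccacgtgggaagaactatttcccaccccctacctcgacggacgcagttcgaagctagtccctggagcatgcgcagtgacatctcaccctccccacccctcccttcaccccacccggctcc
Dpm3: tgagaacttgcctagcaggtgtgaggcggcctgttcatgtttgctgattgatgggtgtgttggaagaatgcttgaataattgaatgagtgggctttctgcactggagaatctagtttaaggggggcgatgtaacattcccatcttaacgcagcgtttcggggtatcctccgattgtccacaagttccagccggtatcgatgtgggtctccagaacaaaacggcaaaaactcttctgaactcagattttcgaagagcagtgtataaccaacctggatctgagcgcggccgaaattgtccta

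The match in Krtcap2 reads CCACAAGAGGGC and begins 71 bases before 1 annotated start and 106 bases before the other. The motif was searched on both strands. It was found in 2.43% of 32851 promoter windows and for 2.82% of 27025 genes, and among the members in windows of Krtcap2 alone (1 of 7). That match lies between the starts of Krtcap2 and those of Trim46. It falls outside the Trim46 windows, which reach 250 bases before a start, so this count does not set Krtcap2 apart from Trim46. A match is a description of letters, and the expression tables hold no binding data. Of 322 tested genes with a match, 33 (10.2%) were lower after combined Ctcf and Wapl deletion and 34 (10.6%) higher, against 5.0% lower and 10.7% higher of all 9148 tested genes with a promoter window. The median log2 difference was 0.15 with a match and 0.18 over all. After Wapl deletion alone, with Ctcf intact, 2.80% of genes with a match were lower and 0.621% higher, against 0.929% and 1.49% of all, and after Smc3 deletion 6.83% were lower and 9.63% higher, against 5.41% and 8.95%. No test was made of these differences.

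Library depth, recovered from the steps of the RPKM values, ran from 8467390 to 41070352 reads in genes. Ctcf RNA was lower after its deletion (log2 difference -1.38 alone and -1.31 in the combined mutant, adjusted p = 1.69e-06 and 2.21e-05, limma). Wapl (listed as Wapal) was lower in the combined mutant (-0.76, adjusted p = 0.0275, or 0.110 without untreated clone 4) and did not pass in the Wapl mutant (-0.51, adjusted p = 0.167, or 0.0233 with the clone as a block). Smc3 RNA did not fall (0.27, adjusted p = 0.119, or 0.0421 with the block), and a transcript that keeps its undeleted exons cannot check that label. The 10 fibroblast markers summed to 9530 to 18409 RPKM in all 27 libraries. The 10 epithelial markers summed to 3.28 to 111 RPKM, with 4 of 10 under 1 RPKM in every library, the 10 macrophage markers to 20.7 to 2645 RPKM, and the 7 neural markers found to 15.6 to 169 RPKM. In bulk RNA, fewer cells of a type and less RNA per cell cannot be told apart.

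Krtcap2 RNA was lowest in the libraries that had lost Ctcf. In untreated Ctcf(fl/fl) cells it stood at 200 and 233 RPKM in clones 1 and 2. After Adeno-Cre the same clones had 46.2 and 68.2 RPKM. Both treated values lay under every untreated one, and the ratio of untreated to treated was 4.32 in clone 1 and 3.41 in clone 2. The log2 difference on log2(RPKM + 1) was -1.92 (SE 0.28), and as this contrast chose the gene it carries no test.

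The combined deletion of Ctcf and Wapl was made in other clones. It also removes Ctcf, and Krtcap2 was chosen for its fall on Ctcf loss with earlier results known, so this reading is not independent of that choice. Krtcap2 stood at 272 and 194 RPKM in the untreated clones 3 and 4 (5112 and 1743 reads). In the Adeno-Cre library of clone 4 it was 20.4 RPKM (198 reads), 9.49 times lower than in the same clone untreated and the lowest of the 27 libraries. The fall was -3.43 on the log2 scale (SE 0.34, adjusted p = 2.23e-06, limma with Benjamini-Hochberg adjustment over all genes tested). With 1 treated library, its spread was taken from the other groups.

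With Adeno-Cre but no floxed alleles the RPKM of Krtcap2 was higher in both clones. In wild-type clones 2 and 3 it went from 233 and 231 RPKM to 414 and 281 RPKM. The difference of 0.55 (SE 0.28) did not pass (adjusted p = 0.299). It passed with the clone as a block (adjusted p = 0.0131), and with the trend on transcript length removed it turned to -0.04 (adjusted p = 0.977), so the call and the direction both rest on the processing. The fall in the combined mutant exceeded the Adeno-Cre difference in wild-type cells by -3.98 (SE 0.44, adjusted p = 2.61e-05), a test of the difference itself. With the length trend removed that difference was -3.69 (adjusted p = 5.85e-06). The same subtraction for Ctcf deletion alone gave -2.47 (SE 0.39), or -2.16 with the length trend removed, described without a test.

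Loss of Smc3 or of Wapl alone went with smaller differences in Krtcap2. Untreated Smc3 clones 1 to 4 had 365, 256, 182 and 245 RPKM and after hydroxytamoxifen 243, 202, 151 and 182 RPKM. Every clone was lower, but the groups overlapped, and the difference of -0.41 (SE 0.20) had an adjusted p of 0.188, which became 0.00625 with the clone as a block. Wapl clones 1 and 2 went from 199 and 239 RPKM to 148 and 181 RPKM, both lower and without overlap (-0.41, SE 0.28, adjusted p = 0.566). Rosa26(CreER/+) control clones stood at 312 and 277 RPKM untreated and at 305 and 281 RPKM with hydroxytamoxifen, a difference of -0.01 (SE 0.28, adjusted p = 1). Less that control, Krtcap2 was at -0.40 for Smc3 (SE 0.34, adjusted p = 0.783, limma, or 0.136 with the block). For Wapl it was at -0.41 (SE 0.39), and neither difference passed with or without the block.

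Ordered by mean level, the groups with Krtcap2 in the first 10 places, from wild-type Adeno-Cre (347 ± 94.3 RPKM, SD, n = 2) through Cre-ER untreated (294 ± 25.1), Cre-ER hydroxytamoxifen (293 ± 17.4), Smc3 untreated (262 ± 76.0, n = 4), combined untreated (233 ± 55.02), wild-type untreated (232 ± 1.82), Wapl untreated (219 ± 28.2), Ctcf untreated (216 ± 23.4) and Smc3 hydroxytamoxifen (194 ± 38.5, n = 4) to Wapl hydroxytamoxifen (165 ± 23.5), each overlapped the next in range. The ranges then separated. Ctcf Adeno-Cre (57.2 ± 15.5, n = 2) lay apart from the group above it, and the combined Adeno-Cre library (20.4) lay apart from both.

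**Figure D1:**
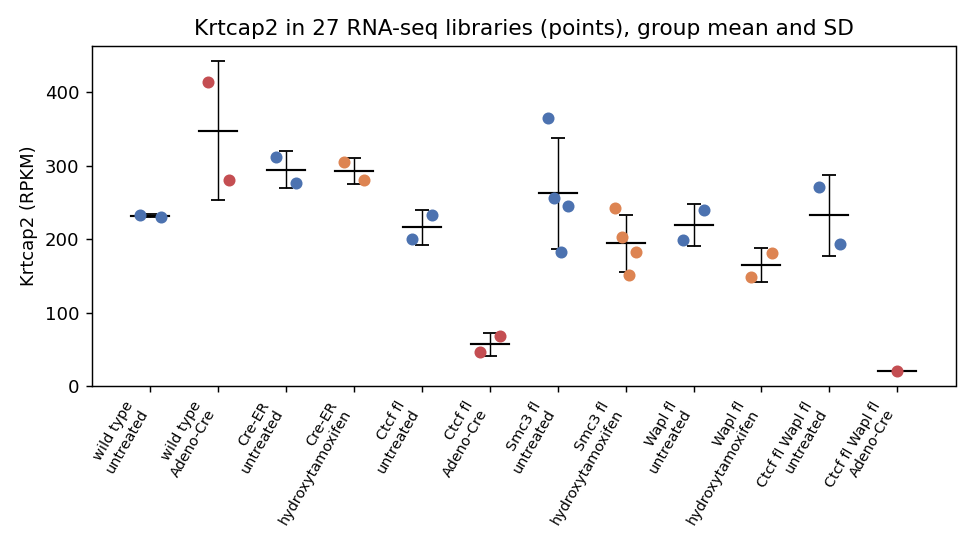
Krtcap2 level (RPKM, linear axis from 0) in each of 27 RNA-seq libraries, as points, with the group mean as a line and the SD as bars (none for the group of 1). The Ctcf Adeno-Cre libraries (46.2 and 68.2 RPKM) and the combined Ctcf and Wapl library (20.4 RPKM) lie below all others.

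Trim46, which starts back to back with Krtcap2, was the one other member past the threshold in the unpaired fit. It was far less abundant per length, with 5.33 and 5.09 RPKM in the untreated combined clones 3 and 4 and 1.82 RPKM after Adeno-Cre, below both and the lowest of its 27 values. The fall was -1.14 on the log2 scale (SE 0.29, adjusted p = 0.0116), and without untreated clone 3 it was -1.11 with an adjusted p of 0.0530. Less the wild-type Adeno-Cre difference it was -1.20 (SE 0.37, adjusted p = 0.0806), which passed with the clone as a block (0.00674) and with log2(RPKM + 0.1) (0.0480).

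The other comparisons gave smaller differences in Trim46. Ctcf deletion alone took it from 4.31 and 6.23 RPKM to 3.08 and 3.85 RPKM, without overlap (-0.48, SE 0.24, no test). Wild-type clones had 8.88 and 7.65 RPKM untreated and 9.82 and 7.58 RPKM with Adeno-Cre. Smc3 clones ranged from 7.56 to 11.2 RPKM untreated and from 6.92 to 12.99 RPKM treated, with a log2 difference of -0.04 (SE 0.17, adjusted p = 0.912). All 4 libraries of untreated Ctcf(fl/fl) and combined cells lay below every other untreated library, so the Trim46 level also differed between untreated genotypes.

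Dpm3, the next gene downstream, passed no test in the unpaired fit. In the combined mutant it had 96.4 and 79.1 RPKM untreated and 78.4 RPKM after Adeno-Cre, a difference of -0.15 (SE 0.29, adjusted p = 0.783). After Ctcf deletion alone it stood at 103 and 136 RPKM untreated and 133 and 176 RPKM treated, higher in both clones (0.37, SE 0.23, or 0.08 with the length trend removed, no test). Wild-type Adeno-Cre clones were also higher, from 143 and 125 RPKM to 235 and 177 RPKM (0.60, SE 0.23, adjusted p = 0.170, or 0.00857 with the clone as a block). With the length trend removed that difference turned to -0.03 (adjusted p = 0.976), as for Krtcap2, and both are short transcripts, of 402 and 511 bases. Less the wild-type Adeno-Cre difference, Dpm3 was at -0.76 in the combined mutant (SE 0.37, adjusted p = 0.298, or -0.43 with the length trend removed). The same subtraction for Ctcf deletion alone gave -0.24 (SE 0.33, or 0.11 with the length trend removed, no test), where Krtcap2 had -2.47.

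Thbs3 was lower in the combined mutant without passing the test, at 14.4 and 14.9 RPKM untreated and 7.74 RPKM treated (-0.84, SE 0.34, adjusted p = 0.103). With the clone as a block its adjusted p was 0.0162. After Smc3 deletion Thbs3 went from 35.2, 42.2, 20.7 and 30.9 RPKM in clones 1 to 4 to 49.1, 51.1, 28.1 and 53.6 RPKM, higher in each clone with overlapping groups. The difference was 0.48 (SE 0.20, adjusted p = 0.108), past the threshold with the block (0.00573), without treated clone 3 (0.0131) and without untreated clone 2 (0.0488). Wapl clones 1 and 2 were lower, from 37.4 and 31.3 RPKM to 23.8 and 22.1 RPKM (-0.56, SE 0.28, adjusted p = 0.367, or 0.0348 with the block). After Ctcf deletion Thbs3 went from 18.8 and 12.8 RPKM to 11.3 and 13.1 RPKM, lower in 1 clone and near its untreated value in the other. With Adeno-Cre in wild-type cells it was also lower, from 13.9 and 15.5 RPKM to 11.3 and 12.4 RPKM (-0.29, SE 0.28). Less the agent controls, Thbs3 was at -0.55 in the combined mutant (SE 0.44), 0.54 for Smc3 (SE 0.34) and -0.50 for Wapl (SE 0.39). None of these differences passed, with or without the block. For Ctcf deletion alone the subtraction gave -0.04 (SE 0.39, no test).

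Mtx1, Muc1 and Efna1 passed no test in the unpaired fit. Mtx1 was the steadiest member, between 24.2 and 38.0 RPKM in the 27 libraries, with 38.0 RPKM in the combined Adeno-Cre library against 32.6 and 35.0 RPKM untreated (0.17, SE 0.16, adjusted p = 0.537). Muc1 was near the floor, at 0.394 to 1.71 RPKM and 10 to 84 reads, so changes in it were hard to detect at this depth. Efna1 lay between 1.52 and 11.5 RPKM and was lower in each Smc3 clone, from 3.54, 8.19, 3.79 and 11.5 RPKM to 2.69, 5.98, 3.47 and 5.24 RPKM (-0.45, SE 0.29, adjusted p = 0.336, or 0.0433 with the block). In the combined mutant Efna1 had 1.68 and 3.92 RPKM untreated and 3.83 RPKM treated.

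Counted over the 7 members, limma called 2 lower and 0 higher in the combined mutant (3 at an unadjusted p under 0.05), against 15.8% of all genes called there. In the difference of that mutant from wild-type Adeno-Cre, 1 was lower, against 3.87% of all genes (2 members at an unadjusted p under 0.05). No member was called after Smc3 deletion (15% of all genes called, 1 member at an unadjusted p under 0.05), after Wapl deletion (2.43%, 0 members), with Adeno-Cre in wild-type cells (3.24%, 1 member) or with hydroxytamoxifen in Cre-ER cells (0%, 0 members, 41 of all genes at an unadjusted p under 0.05). The differences from Cre-ER hydroxytamoxifen called 0 members for Smc3 (1.23% of all genes) and 0 for Wapl (0.143%), with 0 members at an unadjusted p under 0.05 in each. Of 12604 genes tested, those at an unadjusted p under 0.05 numbered 3666 in the combined mutant and 2254 in its difference from wild type. They numbered 3521 after Smc3 deletion, 1855 after Wapl deletion and 2334 with Adeno-Cre in wild-type cells. In the differences from Cre-ER hydroxytamoxifen they numbered 1451 for Smc3 and 809 for Wapl. With the clone as a block the counts of members called were 3 for Smc3, 1 for Wapl, 2 for wild-type Adeno-Cre, 3 for the combined mutant and 2 for its difference from wild type. The percentages above belong to the unpaired fit. The share of all genes called with the block is not given here, so these counts stand without a background. The members' median difference in the combined mutant was -0.15, against 0.17 over all genes tested. In the Ctcf contrast, which chose the members, groups did not overlap for 2 of 7 members (Krtcap2 and Trim46), and for 48.3% of all genes.

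In the 13 clones with an untreated and a treated library, the sign of the change matched that of Krtcap2 in 10 for Efna1, 9 for Trim46, 8 for Dpm3 and 5 each for Muc1, Thbs3 and Mtx1. Many of these changes were small. In the 3 clones in which Krtcap2 was more than 2-fold lower, all of which had lost Ctcf, Trim46 was lower in 3 (-1.11 to -0.38), Efna1 in 3 (-0.41 to -0.03), Thbs3 in 2, Dpm3 and Muc1 in 1 each and Mtx1 in 0. The neighbours therefore did not share one direction.

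**Figure D2:**
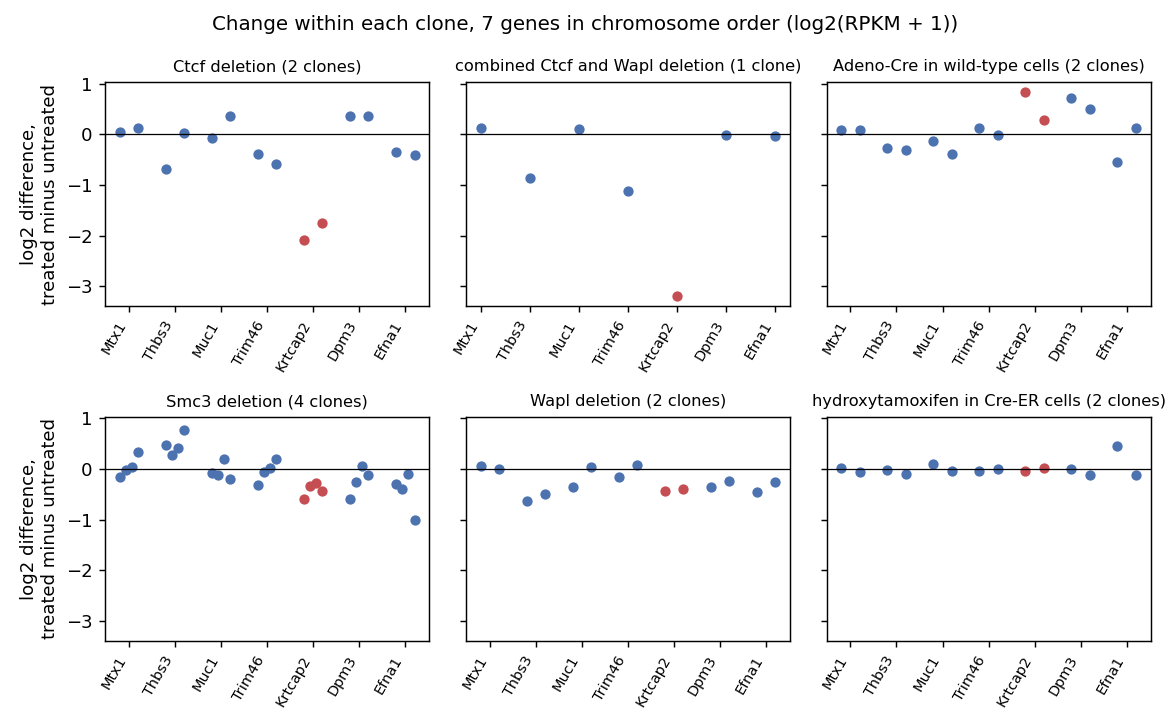
Log2 difference of treated minus untreated RPKM + 1 within each clone (y axis) for the 7 genes in chromosome order (x axis), 1 panel per comparison and 1 point per clone. Krtcap2 (red) lies at -2.09 and -1.76 after Ctcf deletion and at -3.19 in the combined mutant, while Mtx1 stays close to 0 in each of those clones.

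GRO-seq of other combined-mutant clones (clones 1 and 2, pooled by the authors into 1 column per condition, so without a spread or a test) gave neighbours with opposite differences in nascent RNA. Krtcap2 went from 19.0 TPM (a share of the column's reads, scaled to transcript length) untreated to 0.822 TPM after Adeno-Cre, a log2 ratio of -4.38 on TPM + 0.1, and 1.04% of the 16119 genes kept had a lower ratio. Trim46 went from 5.86 to 1.10 TPM (-2.32) and Thbs3 from 3.13 to 0.579 TPM (-2.25). Dpm3 was higher, at 24.9 TPM untreated and 113 TPM after Adeno-Cre (2.18), and 98.8% of genes had a lower ratio. No trend on transcript length (402 bases for Dpm3, 511 for Krtcap2) was removed from the GRO-seq ratios. The part of length in them was not tested.

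Efna1 had 3.04 TPM untreated and 7.39 TPM after Adeno-Cre (1.25), Mtx1 9.57 and 9.79 TPM (0.03), and Muc1 0.649 and 0.938 TPM, under the minimum of 1 TPM set for a ratio. Of 6 members kept, 3 were more than 2-fold lower and 2 more than 2-fold higher, against 35.3% and 6.19% of all genes. The median ratio over all genes was -0.74, so the columns differ in how TPM is spread over genes, and the 3 lower members lay below that median and Dpm3, Efna1 and Mtx1 above it. For Dpm3 the nascent log2 ratio was 2.18 and the RNA-seq log2 difference -0.15, in different clones. In the deposited column named wild type the levels were 24.2 TPM for Krtcap2, 33.0 TPM for Dpm3, 4.05 TPM for Trim46 and 1.91 TPM for Thbs3. Its libraries are not given, so whether it also holds treated or Rosa26(CreER/+) samples is not known.

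DRB, an inhibitor of the kinase that releases paused polymerase, was added to Adeno-Cre combined-mutant cells for 3.5 h in 1 library, and another was taken 1 day after its removal. These columns sum to about 0.5 of the total of the pooled ones, so the values are given times 2. Krtcap2 had 5.27 TPM with DRB and 6.90 TPM after washout, both above its 0.822 TPM in Adeno-Cre cells and below its untreated level of 19.0 TPM. Dpm3 reached 946 TPM with DRB and 300 TPM after washout. Against Adeno-Cre cells, the median log2 ratio of all genes kept was -0.76 with DRB and 0.03 after washout. No trend on transcript length was removed from these values either. The part of length in those of the short Krtcap2 and Dpm3 was not tested. Trim46 was listed at 0 with DRB and had 0.733 TPM after washout.

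With DRB, Thbs3 had 1.49 TPM, Mtx1 34.3 TPM and Efna1 13.6 TPM, and after washout 1.18, 12.2 and 8.98 TPM. Of 6 members kept, 1 (Trim46) was more than 2-fold lower and 4 (Krtcap2, Thbs3, Mtx1 and Dpm3) more than 2-fold higher with DRB than without, against 43.9% and 13.2% of all genes. After washout 0 were lower and 2 (Krtcap2 and Dpm3) higher, against 13.1% and 6.72%. Whether reads were counted by strand is not given in the sources used here.

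**Figure D3:**
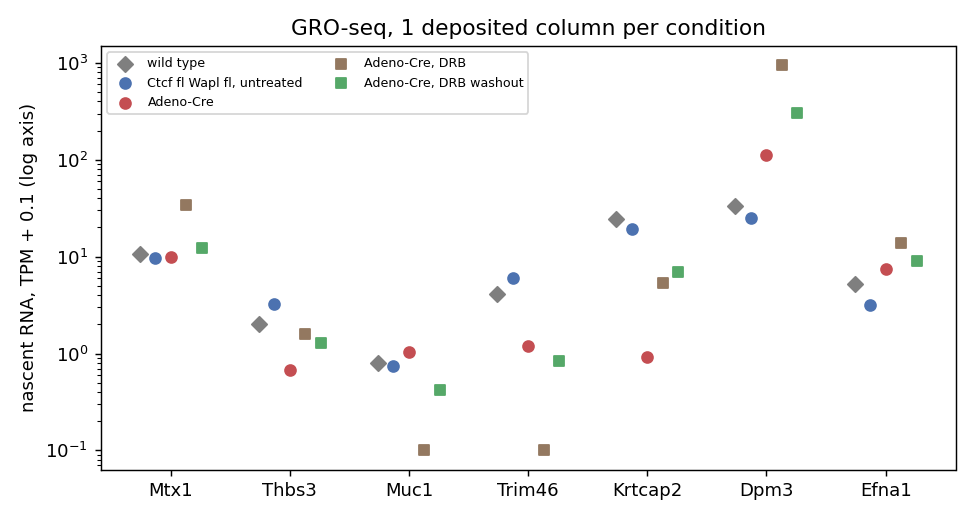
Nascent RNA of the 7 genes in chromosome order, as TPM + 0.1 on a log axis, 1 symbol per deposited column (DRB and washout times 2). After Adeno-Cre (red) Krtcap2, Trim46 and Thbs3 lie below the untreated column (blue), and Dpm3 and Efna1 above it.

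The 2 libraries of the separately normalized table, both labelled as the combined mutant given Adeno-Cre (clone 3), disagreed with each other. The deposited name of that table refers to serum stimulation, which the label of neither library gives. Krtcap2 had 33.8 RPKM in the first (library 28014) and 180 RPKM in the second (library 28018). Trim46 had 2.48 and 3.76 RPKM, Thbs3 7.92 and 14.8 RPKM, Dpm3 187 and 71.99 RPKM, Mtx1 39.5 and 30.1 RPKM, Efna1 2.43 and 2.52 RPKM and Muc1 0.999 and 0.385 RPKM. Ctcf was at 3.17 and 7.61 RPKM and Wapal at 0.902 and 2.09 RPKM. Both targeted genes were thus higher in library 28018 than in library 28014, which carries the same label. That table holds no untreated library, so the label of library 28018 could not be checked within it. Isg15, an interferon-induced gene, was at 325 and 3.95 RPKM. In the main table, normalized apart, untreated combined cells had 7.02 and 10.4 RPKM of Isg15, and their Adeno-Cre library 338 RPKM. Ctcf was there at 9.26 and 12.5 RPKM untreated and 3.76 RPKM treated, and Wapal at 2.72 and 3.92 RPKM and 1.52 RPKM. Ctcf and Wapal in library 28018 lay between those levels, and Isg15 below them. Whether the label is right was not tested. No group was formed from these libraries.

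The stretch was widened to flanking genes, 9 before Mtx1 (Dap3, Ash1l, Rusc1, Fdps, Pklr, Hcn3, Clk2, Scamp3 and Fam189b) and 10 after Efna1 (Efna3, Efna4, Adam15, Dcst1, Zbtb7b, a predicted gene, Lenep, Flad1, Cks1b and Shc1). With Slc50a1 and a small RNA inside the span this made 21 genes, of which 18 were tested. In the combined mutant 3 of them were lower and 2 higher, beside 673 lower and 1324 higher of all 12604 genes tested. Slc50a1, a sugar transporter, was at -0.93 (SE 0.21, adjusted p = 0.00557), Efna4, an ephrin ligand, at -0.85 (SE 0.19, adjusted p = 0.00408), and Fdps, which makes farnesyl diphosphate, at -2.01 (SE 0.64, adjusted p = 0.0414). Without untreated clone 3 the adjusted p was 0.0631 for Slc50a1 and 0.196 for Fdps, and Fdps also missed the threshold with the clone as a block (0.0778). Rusc1 (0.94, adjusted p = 0.00161) and Scamp3 (0.49, adjusted p = 0.0190, or 0.398 after rescaling) were higher.

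Elsewhere in the stretch Efna3 was lower after Smc3 deletion (-0.53, SE 0.17, adjusted p = 0.0404) and Rusc1 higher after Wapl deletion (0.60, adjusted p = 0.0379). Both were close to the threshold. Leaving out 1 library lost the call of Efna3 in 6 of 8 cases (adjusted p up to 0.140) and that of Rusc1 in 4 of 4 (up to 0.408). Krtcap2 had the largest difference of the genes shown in the combined mutant, and the median of the 18 was 0.01. In nascent RNA 5 of 19 flanking genes kept were more than 2-fold lower (Fdps, Efna4, Ash1l, Zbtb7b and Lenep, the last listed at 0 after Adeno-Cre) and 1, the small RNA, higher. Of all genes kept, 35.3% were more than 2-fold lower and 6.19% higher. Slc50a1 went from 11.2 to 7.19 TPM (-0.64), near the median of all genes.

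**Figure D4:**
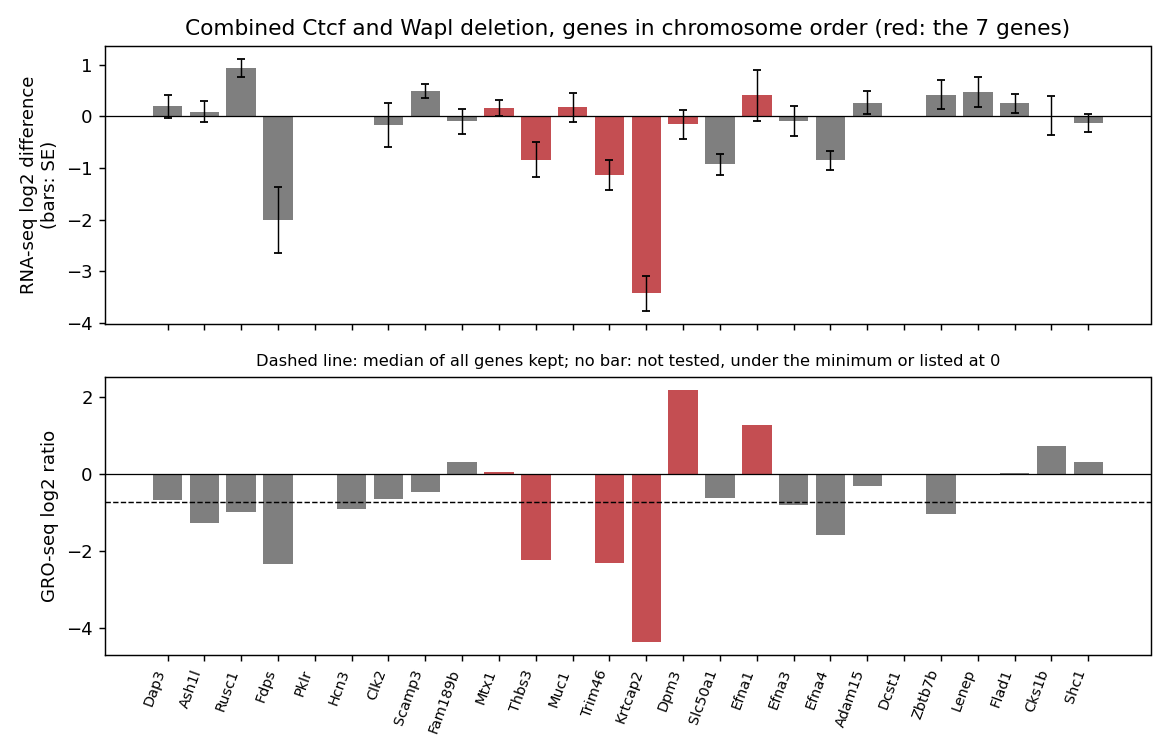
Genes in chromosome order (x axis, 1 small RNA and 1 predicted gene left out), with the 7 members in red: RNA-seq log2 difference with its SE (upper panel) and GRO-seq log2 ratio (lower panel) after combined Ctcf and Wapl deletion. Krtcap2 stands at -3.43 in RNA-seq between Trim46 (-1.14) and Dpm3 (-0.15), and Dpm3 stands at 2.18 in GRO-seq.

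Other genes of the members' pathways were read from lists, beside 673 lower and 1324 higher of 12604 genes in the combined mutant and 706 lower and 1181 higher after Smc3 deletion. Of 12 measured genes of oligosaccharyltransferase and dolichol-phosphate mannose synthase, 0 were called in the combined mutant (median 0.00, against 0.17 over all genes), and 1 with the clone as a block. After Smc3 deletion Magt1, another transferase subunit, rose by 0.56 (SE 0.12, adjusted p = 0.00286), the 1 called of 12 (3 with the block). With Adeno-Cre in wild-type cells 0 were called, where 3.24% of all genes were. With the block 6 were higher and 1 lower. Counts with the block, here and in the lists below, have no share of all genes beside them, so they cannot be read as particular to a list. In nascent RNA the 12 had a median ratio of -0.87, with 3 more than 2-fold lower and 1 higher. Over all genes kept the median was -0.74, with 35.3% more than 2-fold lower and 6.19% higher.

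Of 13 tested genes that assemble the dolichol-linked glycan, 2 were lower in the combined mutant. Alg12, a mannosyltransferase, fell by 0.82 (SE 0.19, adjusted p = 0.00674) and Alg5, a glucosyltransferase, fell by 1.45 (SE 0.44, adjusted p = 0.0306, or 0.0811 without untreated clone 3 and 0.0665 without clone 4). In the difference from wild-type Adeno-Cre 0 of the 13 were called (1 lower with the block; median -0.27, against 0.10 over all genes). After Smc3 deletion 0 of these 13 were called (2 with the block), and after Wapl deletion 0 (1 with the block).

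Among 9 tested ephrin-A ligands and EphA receptors, 4 were lower after Smc3 deletion, and in the combined mutant 3 were lower and 1 higher (5 lower and 1 higher with the block), where 15% and 15.8% of all genes were called. Less the agent controls, 0 of the 9 were called for Smc3 (3 lower with the block), and 1, Epha1, was lower for the combined mutant (-2.51, SE 0.36, adjusted p = 0.000347, and 5 lower and 2 higher with the block). Epha4 was lower after Smc3 deletion (-0.74, adjusted p = 0.000226), after Wapl deletion (-0.76, adjusted p = 0.0160, and 0.0743 to 0.162 with 1 library left out) and in the combined mutant (-1.13, adjusted p = 0.000676). Of the other thrombospondins (4 tested), Thbs1 was lower after Smc3 deletion (-1.997, adjusted p = 0.000791) and Thbs2 in the combined mutant (-1.47, adjusted p = 0.00189). The 4 had a median of -1.01 in the combined mutant and already of -0.84 with Adeno-Cre in wild-type cells (0 called, or 1 lower with the block). In the difference from wild-type Adeno-Cre 0 were called (1 lower with the block; median 0.06), and in that of Smc3 from Cre-ER hydroxytamoxifen 0 (median -0.01). Of 3 metaxin and sorting-complex genes and 2 class I TRIM genes tested, 0 were called in the unpaired fit, and 1 metaxin-list gene passed with the block after Smc3 deletion and 1 in the combined mutant. No other membrane mucin was abundant enough to test.

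Other lists differed in the same libraries. Interferon-response genes were higher in 9 of 14 tested in the combined mutant (median 2.12) and in 11 of 14 with Adeno-Cre in wild-type cells (median 2.47), with 0 called in the difference between them. Epithelial markers were higher in 3 of 6 tested in the combined mutant (Cldn4, Cldn3 and Krt19), whose Adeno-Cre library had the highest epithelial sum of all 27 (111 RPKM, against 13.03 RPKM untreated) and the lowest fibroblast sum (9530 against 12374 RPKM), with 3 of 10 fibroblast markers lower (Pdgfrb, Col1a2 and Pdgfra, or 5 with the block). Without untreated clone 3 the calls of Krt19, Col1a2 and Pdgfra were lost (adjusted p = 0.0555, 0.262 and 0.338). In the difference from wild-type Adeno-Cre 2 epithelial markers were higher and 1 fibroblast marker lower. The macrophage sum there was 366 RPKM against 283 RPKM and the neural sum 120 against 49.7 RPKM. Their part in the values of Krtcap2 and its neighbours was not tested.

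By Pearson correlation over the 27 libraries on log2(RPKM + 1), the named genes most like Krtcap2 among 12601 compared were Dhrs4 (r = 0.94), Slc35b2 (0.93), Nle1 (0.92), Det1 (0.91) and Adprhl2 (0.91). The libraries share clones and treatments, so this is a description. Dhrs4, a short-chain dehydrogenase, averaged 16.4 RPKM untreated in combined cells and 2.49 RPKM after Adeno-Cre, and Slc35b2, a Golgi carrier of the sulfate donor, 52.3 and 9.50 RPKM. The promoter windows of 2 of the 5 (Slc35b2 and Adprhl2) hold a match to the motif shown above in Krtcap2, where 2.82% of all genes with a window have one. The 5 were picked from these same libraries for their likeness to Krtcap2, so this count is a description too. Among the members the correlation with Krtcap2 was highest for Trim46 (r = 0.73), then Dpm3 (0.40), Thbs3 (0.37), Efna1 (0.25), Muc1 (-0.15) and Mtx1 (-0.39).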

How the data were processed

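The authors deposited RPKM values for 27 RNA-seq libraries in 1 table and for 2 in another, and TPM values for GRO-seq. Per the submitters' processing notes the build was mm9 and the tools included TopHat (1.3.1 and 1.4.1), Bowtie (0.12.5) and HTSeq. The deposited TPM columns of the combined mutant pooled 2 libraries per condition (summing to 199987 and 199994) except the DRB columns (99999 and 99997). The libraries behind the wild-type column are not given in the sources used here. The members and gene lists were chosen with earlier results of these data known.

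Differences were tested with limma (3.58.1, R 4.3.3) on log2(RPKM + 1), 1 mean per group, in a model of all 27 libraries (12 groups, 15 residual degrees of freedom), for genes of at least 1 RPKM in 2 libraries. The threshold was a Benjamini-Hochberg adjusted p of 0.05. These folds understate changes of low genes. The labels pair libraries by clone, and their deviations from group means correlated at 0.76 (wild type), 0.68 (Ctcf), 0.49 to 0.70 (Smc3), 0.47 (Wapl) and -0.20 (Cre-ER). The fit with the clone as a block had 7 residual degrees of freedom. The share of all genes it called is not given here, so every count with the block stands without a background. GRO-seq ratios used TPM + 0.1 and a limit of 2-fold. Reads were recovered from RPKM steps (100% of 18155 genes whole within 0.02 reads). The fit was tested on simulated data for the Smc3 comparison only, drawn without correlation between libraries of a clone. That test does not cover the combined mutant with its 1 treated library. Named genes were the members, Ctcf, Smc3, Wapal, flanking genes within 10 on each side (not all are reported here), the 5 most correlated with Krtcap2, and up to 4 called genes per list and comparison. Alternatives were a pseudocount of 0.1, no filter, median-of-ratios rescaling, removal of the length trend, the block and leaving out each library, and for GRO-seq another pseudocount, scaling and filter. ChIP-seq samples were not analysed here.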

Additional observations from a re-analysis of the deposited data

Results flagged for a closer look

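Krtcap2 differed between genotypes under the same Adeno-Cre treatment. The change in the combined Ctcf and Wapl mutant, less that in wild-type cells, was -3.98 on the log2 scale (adjusted p = 2.61e-05, limma), lower in the 1 treated mutant library and higher in 2 of 2 wild-type clones. For Ctcf deletion alone every clone was lower (2 of 2) and every wild-type clone higher (2 of 2), a difference of -2.47, which was not tested because this contrast chose the gene. The difference in wild-type cells (0.55) did not pass and turned to -0.04 with the length trend removed, which left the differences at -3.69 and -2.16. The combined mutant also lacks Ctcf, for whose loss the gene was chosen.

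Thbs3 was higher in all 4 Smc3 clones and lower in both Wapl clones under hydroxytamoxifen, with mean changes 1.04 apart on the log2 scale. That difference was not tested. In the Smc3 hydroxytamoxifen libraries Muc1 in clone 1 (0.459 RPKM) stood apart from the other 3 (1.05 to 1.15 RPKM), with a gap of 0.851 of the range. Chance sets about 1 in 20 such groups apart, and Muc1 rests on few reads.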

How the results depend on the processing

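With the clone as a replicate block 3 members were called after Smc3 deletion, 1 after Wapl deletion, 2 with Adeno-Cre in wild-type cells and 2 in the difference of the combined mutant from wild type, against 0, 0, 0 and 1 without it. No share of all genes called with the block is given beside these counts. With the length trend removed 1 member was called after Smc3 deletion (Krtcap2, -0.48, adjusted p = 0.0441), and with log2(RPKM + 0.1) 2 were called in the difference of the combined mutant from wild type. Leaving out 1 library at a time gave 0 to 1 members after Smc3 deletion and 1 to 2 in the combined mutant. After Ctcf deletion, 4 members had groups without overlap after rescaling, 4 with the length trend removed, and 2 to 6 with 1 library left out (6 without treated clone 1, 4 without treated clone 2, 6 without untreated clone 2), against 2. Leaving out a library can only keep or add groups without overlap. The share of all genes (48.3%) is for the main setting, and none was computed for these settings, so the counts say nothing particular to the members. After Ctcf deletion the length trend took Krtcap2 from -1.92 to -2.20 and Dpm3 from 0.37 to 0.08, and in wild-type cells given Adeno-Cre it took Krtcap2 from 0.55 to -0.04 and Dpm3 from 0.60 to -0.03. The cause was not tested. The other 91 recomputed counts were equal to those reported or within 1.5 times of them, 33 calls of single genes were lost and 16 gained, and Krtcap2 kept its fall in the combined mutant under every alternative run.

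The combined mutant rests on 1 treated RNA-seq library and GRO-seq on 1 column per condition. Muc1, at 10 to 84 reads, was too low for small changes to be detectable.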
